A study of Mus musculus with 69 samples.

Results

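Gene expression was compared between dorsal skin of SPR mice 4 h after a topical dose of TPA and untreated dorsal skin of the same strain. SPR stands for the wild-derived strain Spret/Ei, which the labels call Spretus. The comparison rests on 4 of the 69 arrays in the series: 2 arrays at 4 h and 2 arrays at 0 h, chosen by strain and hour in the labels. All 4 belong to batch 2, and 18820 genes with a single symbol were tested. The mice were 8 weeks old. Their backs had been shaved 2 days before TPA was applied once in acetone, and the arrays at 0 h are labelled untreated. No vehicle-treated skin is among the arrays, so effects of acetone cannot be told apart from those of TPA. The other groups set beside these were the remaining SPR arrays from 2 to 1008 h, the F1 cross of FVB/N and Spret/Ei (4 untreated arrays and 2 at 4 h), and the inbred strain FVB/N (3 arrays each at 0, 2 and 6 h). No transgene or deletion is named for any group. The labels do not say whether each array came from a separate mouse. The p-values therefore describe how far arrays scatter within the groups of the whole series, and that scatter may be technical.

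TPA (12-O-tetradecanoylphorbol-13-acetate) is a phorbol ester. It takes the place of diacylglycerol on protein kinase C and on the Ras exchange factors of the RasGRP family, and so switches on the ERK pathway, AP-1 and NF-kappaB. In mouse skin a single application is known for early immediate early gene transcription, release of chemokines and cytokines by keratinocytes, entry of neutrophils and, later, thickening of the epidermis.

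At 4 h the largest rises were in Lcn2, Cxcl2 and Stfa3 and the largest falls in Fads2b, Hlf and Slc16a14. Of 18820 genes, 992 (5.27%) were called, 484 higher (2.57%) and 508 lower (2.7%). A call required a Benjamini-Hochberg adjusted p under 0.05 over all genes in limma and a change of at least 1 on the log2 scale, which is a doubling or a halving. The rises were the larger: 138 genes rose by at least 2 log2 units and 37 fell by as much. At 3 log2 units the counts were 49 and 1, the latter being Fads2b. Genes called lower started from a median untreated level of 7.61, those called higher from 6.62, and all genes from 6.16. In 991 of the 992 both 4 h arrays lay beyond both untreated arrays, which was so for 56.3% of all genes. The exception was Naf1, named for that reason after its values were seen, with 5.44 and 6.81 untreated and 7.55 and 6.75 at 4 h. An exact permutation test of 2 arrays against 2 cannot go below p = 0.333, so the calls rest on a modelled spread. In the main fit that spread was shared with the other groups of the series. A fit of the 4 arrays alone called 1267 genes (639 higher, 628 lower) and kept 986 of the 992 calls.

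**Figure D1:**
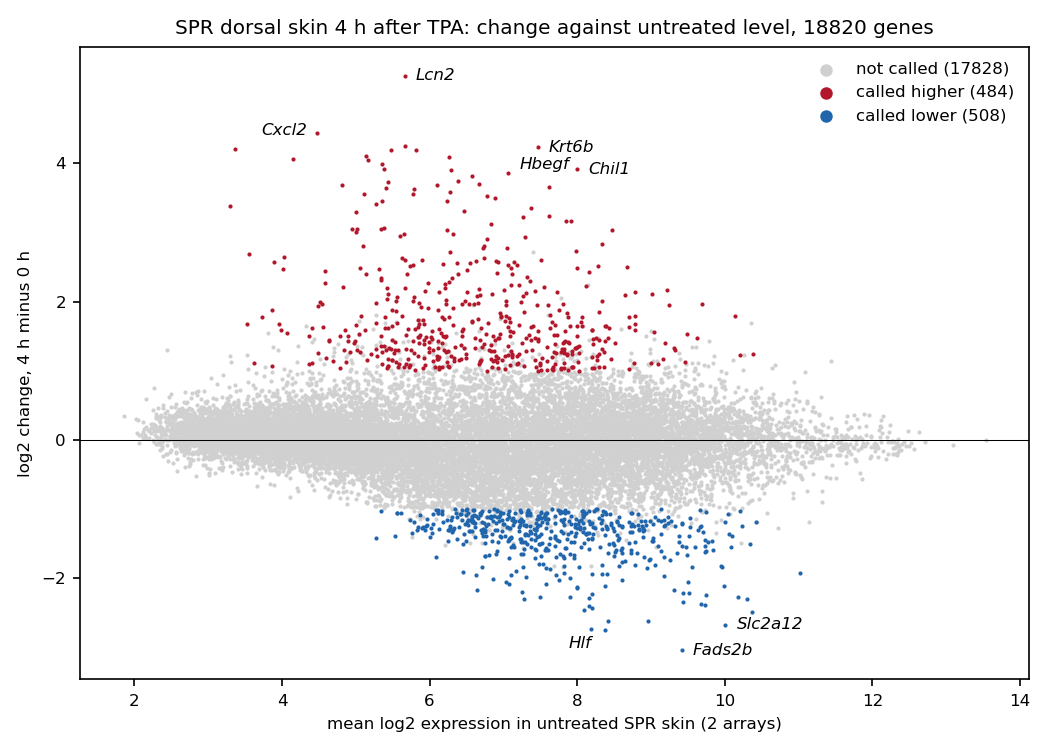
Each point is 1 of 18820 genes in SPR dorsal skin, with its mean log2 expression on the 2 untreated arrays across and its log2 change at 4 h upward. The 484 genes called higher (red) reach further from 0 than the 508 called lower (blue), and the genes called lower lie further to the right.

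Leaving out any of the 4 arrays leaves 1 array in a group and so widens the standard error at the same spread. A lower count therefore does not speak to that array, and the number of calls was lower each time. Without untreated replicate 1 it was 601 (243 higher), without untreated replicate 2 it was 550 (329 higher), without 4 h replicate 1 it was 655 (276 higher) and without 4 h replicate 2 it was 537 (297 higher). In all, 319 genes (180 higher and 139 lower) were called whichever array was left out, and these are said below to have kept their call. With batch 2 arrays alone 467 genes were called. With SPR arrays alone 10 were, or 1251 without an SPR array of narrow range described with the time course. When each array was centred on its own median, the median change of all genes moved from 0.0 to 0.18 and the share of calls that were higher from 48.8% to 69.7%. With cyclic loess that share was 60.1%.

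The 2 arrays of each group resembled each other closely. The correlation over all genes was 0.992 between the untreated arrays, 0.989 between the 4 h arrays, and 0.960 to 0.966 across. The 11 keratinocyte markers all lay above the median of the untreated arrays, with a mean level of 11.65 and 11.64 untreated and 11.53 and 11.38 at 4 h. Of 17 lists of cell type, tissue and sex-linked markers, 15 had no member called; the others were the Langerhans list and the keratinocyte list, through Krt15, both described below. The 8 neutrophil markers had a median change of 0.68, and none of them was above the untreated arrays' median. Their mean level was 4.30 and 4.08 untreated and 4.79 and 4.88 at 4 h. The mean level of the 15 liver markers was 5.58 and 5.39 untreated and 6.29 and 6.49 at 4 h, Alb having the largest change at 2.72 ± 1.15 (SE, adjusted p = 0.166). With SPR arrays alone and without the narrow array, 4 of the 15 were called higher. Skeletal muscle markers stood at 5.72 and 5.86 untreated and at 6.05 and 6.79 at 4 h, and pancreas markers at 6.46 on untreated replicate 1 and at 4.60 to 4.95 on the other 3 arrays. The part of these tissues in the results below was not tested. In whole skin, fewer cells of a type and less RNA per cell cannot be told apart.

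Lcn2, which encodes the iron-sequestering protein lipocalin 2, rose most. Its log2 level was 5.72 and 5.60 in untreated skin and 10.64 and 11.21 at 4 h, a 38.4-fold rise (5.26 ± 0.82 log2 units, adjusted p = 1.91e-05). Cxcl2, a neutrophil chemokine, went from 4.45 and 4.49 to 8.87 and 8.93, a 21.5-fold rise (4.43 ± 0.70, adjusted p = 2.61e-05). The arrays of a group differed little for both genes, and the groups were more than 4 log2 units apart. Has2 makes hyaluronan, and it rose 18.2-fold from 5.63 and 6.00 to 9.96 and 10.04. Tnfaip6 encodes TSG-6, which binds hyaluronan, and it rose 18.2-fold from 5.18 and 5.77 to 9.39 and 9.93. Adamts4, an aggrecan-cleaving protease, had the smallest standard error of the 15 largest rises at 4.00 ± 0.35 (adjusted p = 2.13e-10), with 5.27 and 5.44 untreated and 9.05 and 9.65 at 4 h.

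The rest of the 15 largest rises covered several functions. The stefins Stfa3 and Csta3 inhibit cysteine proteases and rose 19.0-fold and 16.7-fold. Krt6b, a keratin of wounded and thickened epidermis, rose 18.8-fold, from 7.59 and 7.33 to 11.78 and 11.60. Ch25h makes 25-hydroxycholesterol and rose 17.2-fold. The monocyte chemokines Ccl2 and Ccl7 rose 17.1-fold and 15-fold. Ccl7 had the widest spread within a group among these genes, with 5.80 and 6.79 untreated and 9.58 and 10.82 at 4 h. Pglyrp2 recognises bacterial peptidoglycan, Slc7a11 is the cystine transporter, and Chil1 is a chitinase-like protein. They rose 16.4-fold, 15.1-fold and 15-fold. Saa2, an acute-phase apolipoprotein, rose 18.4-fold from 3.47 and 3.25 to 7.10 and 8.02. Its adjusted p of 0.0126 became 0.155 without 4 h replicate 2, 0.109 without untreated replicate 2 and 0.076 without untreated replicate 1. The other 14 kept their call with each array left out. With batch 2 arrays alone Chil1 (adjusted p = 0.168), Stfa3 (0.0704), Krt6b (0.0592) and Csta3 (0.0541) were not called.

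**Figure D2:**
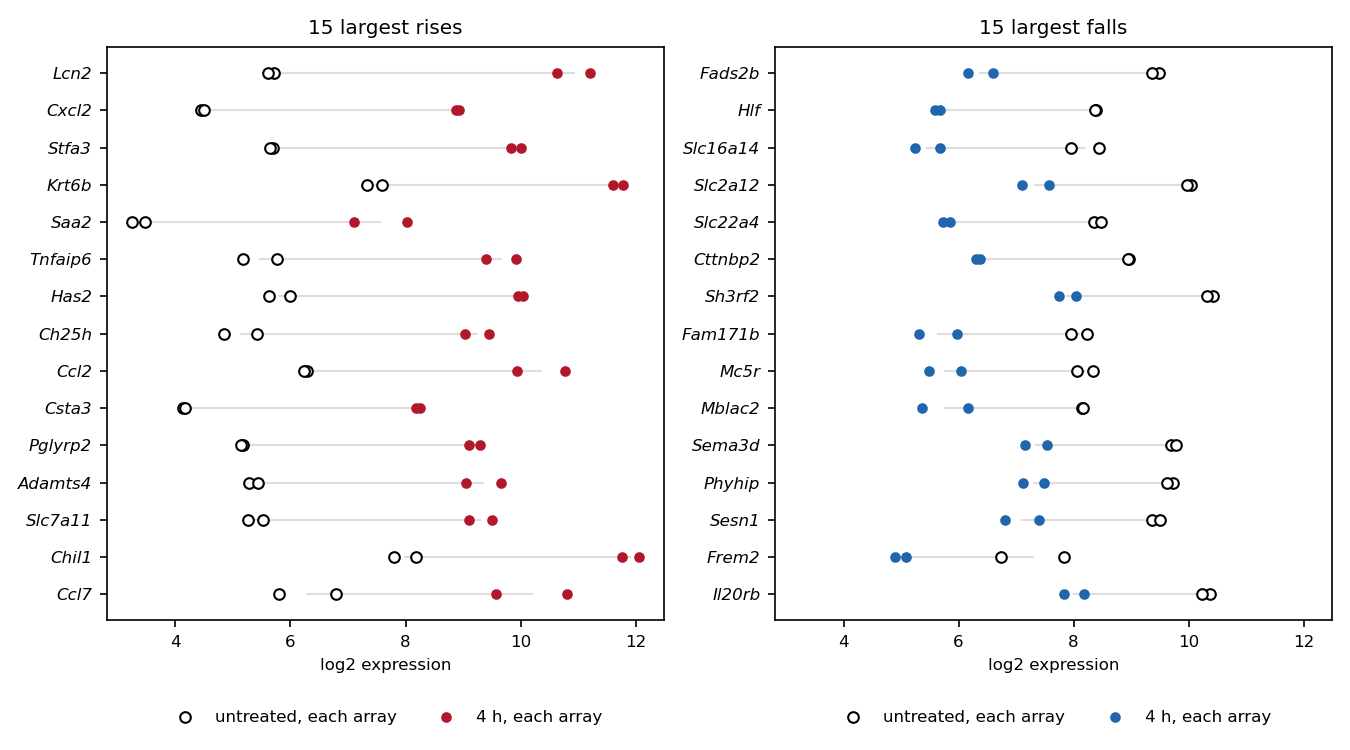
Log2 expression across for the 15 largest rises (left) and 15 largest falls (right) among called genes. Open circles are the 2 untreated arrays and filled circles the 2 arrays at 4 h; in each gene the open and filled circles do not overlap, as the choice of genes required.

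The largest fall was in Fads2b, a fatty acid desaturase family gene, from 9.48 and 9.36 to 6.60 and 6.16, which is 8.23-fold lower (-3.04 ± 0.39, adjusted p = 1.18e-06). Hlf, a PAR bZIP transcription factor driven by the circadian clock, fell 6.71-fold, from 8.39 and 8.37 to 5.67 and 5.59. Solute carriers made up 3 of the 15. Slc16a14, a monocarboxylate transporter family member, fell 6.66-fold, Slc2a12, a glucose transporter, 6.38-fold, and Slc22a4, an organic cation and ergothioneine transporter, 6.15-fold. Slc22a4 was at 8.36 and 8.47 untreated and at 5.86 and 5.73 at 4 h.

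Receptors among the falls were Mc5r, the melanocortin receptor of sebaceous glands (5.41-fold), and Il20rb, a subunit of the receptors for the interleukins 19, 20 and 24 (4.91-fold). Il20rb was at 10.36 and 10.24 untreated and at 8.18 and 7.84 at 4 h. Sesn1, a p53-regulated sestrin, fell 5.05-fold. Sema3d, a secreted semaphorin, fell 5.24-fold, and Frem2, a protein of the epidermal basement membrane, 4.92-fold. Frem2 had the most uneven untreated arrays, at 6.73 and 7.84 against 5.08 and 4.90. Cttnbp2, Sh3rf2, Fam171b, Mblac2 and Phyhip completed the 15, with falls of 5.18-fold to 6.11-fold. All 15 falls kept their call with each array left out, and Slc2a12 lost it with batch 2 arrays alone (adjusted p = 0.128).

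Promoter sequences of risen genes are shown because AP-1, NF-kappaB and serum response factor are the best known nuclear targets of phorbol esters. RefSeq promoters (GRCm38.p6) were searched on both strands in the 250 bases before each gene start for the AP-1 motif TGANTCA, for the NF-kappaB site and for the serum response element. They are from the C57BL/6J reference and not from Spret/Ei, whose bases may differ. Overlapping matches were counted separately where a site reads on both strands. Each line gives the 150 bases next to the start, in the direction of transcription, with the matches in capitals. Cxcl2, Cxcl1, Nfkb2 and Il6 carry an NF-kappaB site, Tnfaip6, Mmp3 and Mmp13 an AP-1 motif, and Dusp5 and Zfp36 a serum response element.
Cxcl2, chr5:90903749-90903898, plus strand: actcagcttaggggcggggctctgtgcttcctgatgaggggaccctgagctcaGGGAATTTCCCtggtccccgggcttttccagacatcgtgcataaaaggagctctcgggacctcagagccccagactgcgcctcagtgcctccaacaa
Cxcl1, chr5:90891095-90891244, plus strand: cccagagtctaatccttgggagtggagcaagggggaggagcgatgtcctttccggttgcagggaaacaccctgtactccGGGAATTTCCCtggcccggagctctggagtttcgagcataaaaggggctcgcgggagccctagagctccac
Nfkb2, chr19:46304587-46304736, plus strand: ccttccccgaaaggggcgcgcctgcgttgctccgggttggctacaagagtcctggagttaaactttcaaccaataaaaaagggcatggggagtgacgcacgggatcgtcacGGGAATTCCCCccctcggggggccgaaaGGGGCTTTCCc
Il6, chr5:30012964-30013113, plus strand: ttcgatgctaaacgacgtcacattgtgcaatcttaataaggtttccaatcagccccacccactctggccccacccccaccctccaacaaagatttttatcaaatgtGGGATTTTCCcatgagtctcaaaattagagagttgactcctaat
Tnfaip6, chr2:52037963-52038112, plus strand: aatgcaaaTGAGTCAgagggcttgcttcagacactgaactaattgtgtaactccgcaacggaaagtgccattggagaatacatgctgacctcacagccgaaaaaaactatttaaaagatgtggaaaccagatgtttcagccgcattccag
Mmp3, chr9:7445672-7445821, plus strand: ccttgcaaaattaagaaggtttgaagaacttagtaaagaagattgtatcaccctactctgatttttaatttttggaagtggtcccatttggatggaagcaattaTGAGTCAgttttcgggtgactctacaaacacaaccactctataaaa
Mmp13, chr9:7272364-7272513, plus strand: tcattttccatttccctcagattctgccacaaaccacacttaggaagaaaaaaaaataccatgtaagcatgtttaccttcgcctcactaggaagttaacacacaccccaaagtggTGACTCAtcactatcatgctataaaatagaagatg
Dusp5, chr19:53528995-53529144, plus strand: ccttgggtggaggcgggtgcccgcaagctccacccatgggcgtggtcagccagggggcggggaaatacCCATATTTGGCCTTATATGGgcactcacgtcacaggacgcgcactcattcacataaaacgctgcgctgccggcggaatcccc
Zfp36, chr7:28379229-28379378, minus strand: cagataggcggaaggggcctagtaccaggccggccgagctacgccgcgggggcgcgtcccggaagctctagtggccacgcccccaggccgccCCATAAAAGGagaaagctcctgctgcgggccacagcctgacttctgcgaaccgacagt

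These genes were chosen for their matches and are examples only. Where matches overlap, the end nearest the start is given: the NF-kappaB match of Cxcl2 ends 86 bases before the start and that of Cxcl1 60 bases before it. The AP-1 motif of Mmp13 ends 28 bases and that of Mmp3 39 bases before the start. Of the 484 genes called higher, 356 had a promoter in the table, with 443 promoters. An NF-kappaB site was found in 10.4% of these, against 4.35% of the promoters of all genes tested and 3.9% of all 32851 RefSeq promoters of that length. An AP-1 motif was found in 10.2%, against 5.9% and 6.75%, and a serum response element in 2.03%, against 1.27% and 1.47%. Several starts of the same gene count as separate promoters. The serum response element share rests on 9 promoters, and starts 2 to 5 of Egr2 are among them. Among 512 promoters of 401 genes called lower the shares were 2.93%, 2.93% and 0.391%. Of the 15 largest rises, 10 had a promoter in the table, and 2 of these held an NF-kappaB site (Cxcl2 and Chil1) and 1 an AP-1 motif (Tnfaip6). A match is a description of letters in the reference, and no binding was measured.

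The gene lists below hold 29 pathways. In 16 of them members were called higher and none lower, in 6 members were called lower and none higher, in 3 both, and in 4 neither. Over all genes 2.57% were called higher and 2.7% lower, and the median change was 0.0.

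**Figure D3:**
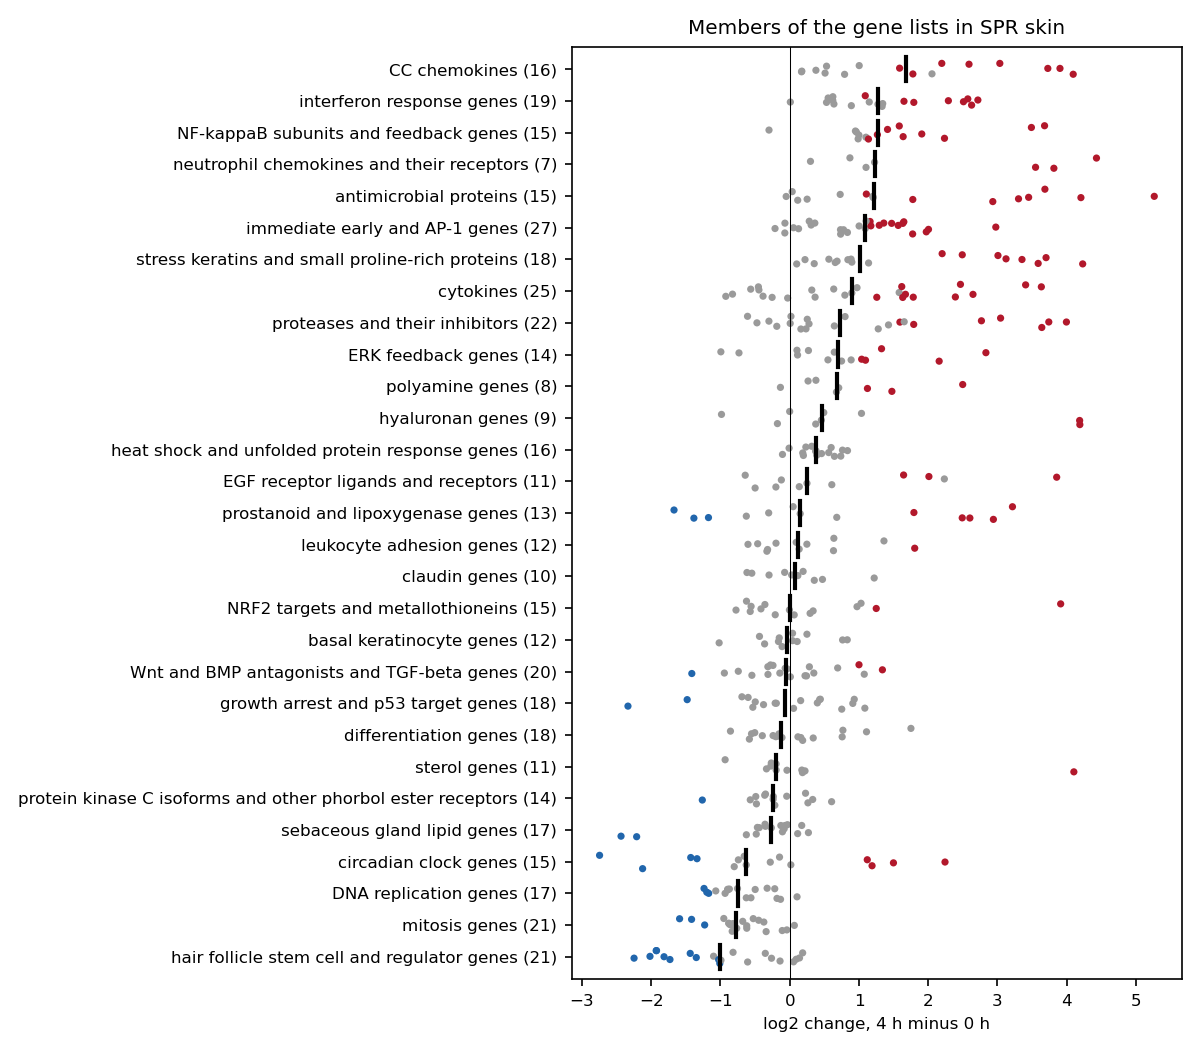
Log2 change at 4 h across for every measured member of the 29 pathway lists, 1 list a row with its number of members, ordered by the median (black bar). Red points were called higher, blue points lower and grey points not called; CC chemokines have the highest median at 1.68 and hair follicle genes the lowest at -1.01.

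Of 27 immediate early and AP-1 genes measured, 12 rose and none fell, with a median change of 1.09, and 6 kept their call with each array left out. Nr4a3, an orphan nuclear receptor, rose most, from 5.61 and 5.70 to 8.27 and 8.99 (2.98 ± 0.40, adjusted p = 1.77e-06). Junb, an AP-1 subunit, rose by 1.78 ± 0.25 and the zinc finger factor Egr1 by 1.65 ± 0.30. Zfp36, which destabilises cytokine mRNAs and whose promoter is shown above, rose from 7.99 and 8.05 to 9.30 and 9.46. Fos itself was not called, with 6.09 and 6.57 untreated and 7.49 and 7.17 at 4 h (adjusted p = 0.214), and neither was Myc (1.09 ± 0.38, adjusted p = 0.07).

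Growth factor ligands and ERK feedback genes rose beside them. Hbegf encodes a ligand of the EGF receptor and went from 7.10 and 7.03 to 10.89 and 10.96 (3.86 ± 0.57, adjusted p = 9.83e-06). The ligands Tgfa (2.01 ± 0.42) and Ereg (1.64 ± 0.49) also rose, and with Hbegf they were the called genes of 11 measured ligands and receptors. Ereg lost its call whichever of the 4 arrays was left out, and both Ereg and Tgfa lost it with batch 2 arrays alone. Epgn, a further ligand, had a change of 2.23 ± 0.75 without a call. Of 14 ERK feedback genes 5 rose and none fell. Dusp6, a phosphatase of ERK, went from 8.42 and 8.25 to 11.30 and 11.04, and Phlda1 rose by 2.16 ± 0.28. Dusp5, Spry4 and Spred3 rose by 1.04 to 1.33, and these 3 lost their call with 1 or more arrays left out. Among 14 protein kinase C isoforms and other phorbol ester receptors none rose and 1 fell: Prkcz, an atypical isoform that does not bind phorbol esters, from 6.52 and 6.72 to 5.63 and 5.09. That call was lost without 4 h replicate 2.

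NF-kappaB subunits and feedback genes were called higher in 9 of 15, with a median change of 1.27, and 6 kept their call with each array left out. Tnfaip3 (2.24 ± 0.30) encodes A20 and Tnip3 (3.68 ± 0.59) a protein that binds it, and both restrain NF-kappaB signalling. Tnfaip3 stood at 7.16 and 7.05 untreated and at 9.39 and 9.29 at 4 h. Bcl3, a nuclear IkappaB protein, rose from 6.80 and 6.98 to 10.39 and 10.36 (3.49 ± 0.43, adjusted p = 5.92e-07). Nfkb2 and Relb, the subunits of the alternative pathway, rose by 1.58 ± 0.27 and 1.14 ± 0.26. Nfkbia, the inhibitor IkappaB-alpha, was not called at 1.00 ± 0.49 (adjusted p = 0.28).

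Of 7 neutrophil chemokines and receptors 3 rose, and all 3 kept their call with each array left out. Besides Cxcl2 these were Cxcl1, from 5.20 and 5.02 to 8.62 and 8.70, and the receptor Cxcr2, from 6.45 and 6.69 to 10.30 and 10.47 (3.81 ± 0.69, adjusted p = 0.00018). The neutrophil markers given above held no called member. CC chemokines rose in 8 of 16 and fell in none, with a median change of 1.68, the highest of the lists. Ccl3 went from 5.50 and 5.38 to 8.74 and 9.60, and Ccl20, which attracts cells with the receptor CCR6, from 8.81 and 8.14 to 11.61 and 11.42. Ccl11, Ccl9, Ccl22 and Ccl4 rose by 1.59 to 2.59. Of the 8, Ccl2, Ccl3 and Ccl7 kept their call with each array left out.

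Cytokines rose in 10 of 25 and fell in none. Tslp, an epithelial cytokine of allergic inflammation, rose most, from 5.92 and 5.65 to 9.40 and 9.44 (3.63 ± 0.57, adjusted p = 2.43e-05). Il1b went from 5.62 and 4.94 to 8.28 and 9.10, Tnf from 5.54 and 5.84 to 8.12 and 8.04, and Il6 from 4.11 and 3.91 to 5.99 and 6.96. Il19 and Il24, ligands of receptors that contain Il20rb, rose by 2.65 ± 0.41 and 1.62 ± 0.39 while Il20rb fell. Csf2, Il10, Osm and Il36a (Il1f6 on the array) rose by 1.26 to 1.78. Il1a had a change of 1.58 ± 0.53 without a call. Of the 10, Il36a, Osm, Il10 and Il24 lost their call with 1 or more arrays left out. Among 12 leukocyte adhesion genes only Icam1 was called, from 7.77 and 7.51 to 9.49 and 9.39, and its call was lost with 1 or more arrays left out. With median centring or cyclic loess 2 of the 12 were called.

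Interferon response genes rose in 8 of 19 and fell in none, with a median change of 1.27. The count was 13 with median centring or cyclic loess. The chemokines Cxcl10, Cxcl9 and Cxcl11 rose by 2.72 ± 0.54, 2.57 ± 0.79 and 1.09 ± 0.35, Gbp2, an interferon-induced GTPase, by 2.63 ± 0.58, and the transcription factor Irf1 by 2.29 ± 0.38. The antiviral genes Ifit1, Rsad2 and Oasl1 rose as well. Ifit1 went from 5.69 and 5.79 to 8.47 and 8.02 (2.51 ± 0.51, adjusted p = 0.000845), and Rsad2 from 5.72 and 5.54 to 7.44 and 7.39. Isg15 (1.34 ± 0.45), Usp18 (1.33 ± 0.47) and Irf7 (1.27 ± 0.42) were not called. Irf1, Ifit1 and Cxcl10 kept their call with each array left out. Among Langerhans cell and class II markers Cd207, which encodes langerin (1.96 ± 0.51), and Cd83 (1.32 ± 0.29) rose, both losing their call with 1 or more arrays left out, and 7 of the 9 were not called.

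In the epidermis, stress keratins and small proline-rich proteins rose in 8 of 18 and fell in none. Krt16, which pairs with Krt6, went from 6.66 and 6.68 to 10.66 and 10.08 (3.70 ± 0.91, adjusted p = 0.00592), and Krt6a rose by 2.49 ± 0.59. Sprr1b, Sprr2d, Sprr2e, Sprr2f and Sprr2h encode cross-linked envelope proteins and rose by 2.20 to 3.59. The Sprr2 genes are near-identical copies in 1 cluster, so signal may be shared among their probe sets. Krt6b, Sprr2e and Sprr2f kept their call with each array left out. None of 18 differentiation genes and none of 12 basal keratinocyte genes was called, with medians of -0.13 and -0.04. The largest change among them was in Lce3c, a late cornified envelope gene, at 1.75 ± 0.61 (adjusted p = 0.07). With cyclic loess 1 differentiation gene was called higher.

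Antimicrobial proteins rose in 8 of 15 and fell in none. S100a8 and S100a9, the subunits of calprotectin, went from 5.31 and 5.40 to 8.62 and 8.99 and from 6.26 and 6.66 to 9.67 and 9.87. Slpi, a secreted inhibitor of neutrophil elastase, rose from 7.30 and 7.29 to 10.21 and 10.25 (2.93 ± 0.46, adjusted p = 2.5e-05). Saa3 rose by 3.68 ± 0.88, the beta-defensin Defb14 by 1.78 ± 0.50 and the cathelicidin Camp by 1.11 ± 0.32. Lcn2 and Slpi kept their call with each array left out.

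Proteases and their inhibitors rose in 7 of 22 and fell in none. Beside Adamts4 these were the collagenase Mmp13, from 5.44 and 5.38 to 9.31 and 8.79, the stromelysin Mmp3 (2.77 ± 0.74), Adamts1 (1.59 ± 0.38), the urokinase receptor Plaur, from 5.26 and 5.43 to 7.96 and 8.82, and the inhibitors Timp1 (3.74 ± 0.60) and Serpinb2 (1.79 ± 0.48). Mmp3, Adamts1 and Serpinb2 lost their call with 1 or more arrays left out. Of 9 hyaluronan genes only Has2 and Tnfaip6 were called. Has1, another hyaluronan synthase, stood at 4.22 and 4.17 untreated and at 4.35 and 5.02 at 4 h.

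Prostanoid and lipoxygenase genes went both ways, with 5 of 13 higher and 3 lower. Ptgs2 is cyclooxygenase 2 and rose from 7.10 and 7.44 to 10.38 and 10.59 (3.22 ± 0.54, adjusted p = 6.23e-05). Ptges, which makes prostaglandin E2, rose by 2.49 ± 0.42, and Hpgd, which inactivates it, fell from 8.53 and 8.46 to 6.68 and 6.97. Alox8, Pla2g4e and Alox12e rose by 1.79 to 2.94, with Alox8 uneven at 4 h (7.74 and 9.33). Alox5ap fell by 1.38 and Alox12 by 1.17. Ptgs2 and Ptges kept their call with each array left out. With median centring 1 member was called lower.

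Hair follicle stem cell and regulator genes fell in 10 of 21 and rose in none, with a median change of -1.01. Sostdc1, a BMP and Wnt antagonist, fell from 9.66 and 9.82 to 6.92 and 8.07 (-2.25 ± 0.36, adjusted p = 3.7e-05). The Hedgehog receptor Ptch1 fell by 2.02, and the R-spondin receptors Lgr6 and Lgr5 by 1.92 and 1.81. Lgr5 was at 8.26 and 8.87 untreated and at 6.93 and 6.57 at 4 h. Krt15, a keratin of bulge and basal cells, went from a mean of 11.01 to 9.08. Lhx2, Bmp4, Foxn1, Msx2 and Gli2 fell by 1.01 to 1.73. Sostdc1, Ptch1 and Lgr6 kept their call with each array left out. With median centring or cyclic loess 8 were called. Neither hair shaft keratins nor inner root sheath genes had a called member.

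Most cell cycle genes had negative changes, 20 of 21 mitosis genes and 16 of 17 DNA replication genes. In each list 3 were called lower, against 2.7% of all genes. Of 21 mitosis genes Ccna2, Cenpf and Aurkb fell, and of 17 DNA replication genes Prim1, Mcm2 and Mcm6 fell, with medians of -0.77 and -0.75 over the lists. Ccna2, the A-type cyclin, was at 8.24 and 8.95 untreated and at 7.36 and 6.65 at 4 h. All 6 lost their call with 1 or more arrays left out. With median centring 1 of the 17 replication genes was called lower. Sesn1 and Cdkn1b, which encodes the inhibitor p27, fell among 18 arrest and p53 target genes, the latter from 9.91 and 9.64 to 8.28 and 8.31. Cdkn1b lost its call without untreated replicate 1 (adjusted p = 0.0549) and with batch 2 arrays alone. With median centring or cyclic loess 2 genes of this list were called higher.

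Circadian clock genes were called in 8 of 15, 4 in each direction. Per3 fell from 7.96 and 8.03 to 5.70 and 6.05, and Hlf, Tef and Cry2 fell too. Bhlhe40, a repressor of clock targets, rose from 7.33 and 7.10 to 9.51 and 9.40, and Nfil3, Npas2 and Cry1 rose too. Hlf, Per3, Cry2 and Bhlhe40 kept their call with each array left out. The labels give no time of day, so the hour of sampling cannot be told apart from TPA for these genes.

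Among 17 sebaceous gland lipid genes Mc5r and Scd2, a stearoyl-CoA desaturase, fell, the latter from 9.33 and 9.54 to 7.33 and 7.12, and the other 15 were not called. Polyamine genes rose in 3 of 8. Smox oxidises spermine and rose from 8.52 and 8.85 to 11.18 and 11.17. Odc1, the rate-limiting enzyme of polyamine synthesis, had uneven untreated arrays, at 7.45 and 9.06 against 10.03 and 9.43 (1.48 ± 0.40, adjusted p = 0.0137). Srm rose by 1.12 ± 0.37. All 3 lost their call with 1 or more arrays left out. Of 15 NRF2 targets and metallothioneins Slc7a11 and Mt1 rose, and of 11 sterol genes Ch25h alone. Mt1 lost its call whichever array was left out, with batch 2 arrays alone and with the trend and robust settings of eBayes (adjusted p = 0.0534). Tgfb1 and Skil rose and Axin2, a Wnt target, fell among 20 genes of the Wnt, BMP and TGF-beta pathways. None of the 3 kept its call: Tgfb1 lost it whichever array was left out, Skil without untreated replicate 1 or 4 h replicate 1, and Axin2 without 4 h replicate 2. None of 16 heat shock and unfolded protein response genes and none of 10 claudins was called, though 1 claudin was called higher with cyclic loess.

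The SPR arrays at other times showed which of these levels were brief. The single arrays at 2 h and 6 h were already or still high for Cxcl2, at 8.50 and 8.68, and for Has2, at 9.48 and 9.83. Il6 was highest at 2 h, at 7.43, and Ifit1 was at 6.31 at 2 h and 7.95 at 6 h. No test was made on single arrays. The 6 h array is batch 3 and the SPR arrays at 0, 2 and 4 h are batch 2. Time and batch therefore cannot be told apart at 6 h. The SPR array labelled 12 h replicate 1 stood apart from the rest, with an interquartile range of 1.62 against 3.34 to 3.72 on the other SPR arrays, and its values are not used here for the time course. It stayed in the model behind the tests. Without it and an F1 array of narrow range, 1170 genes were called at 4 h against 0 h (586 higher, 584 lower). The count at 24 h against 4 h was then 859.

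**Figure D4:**
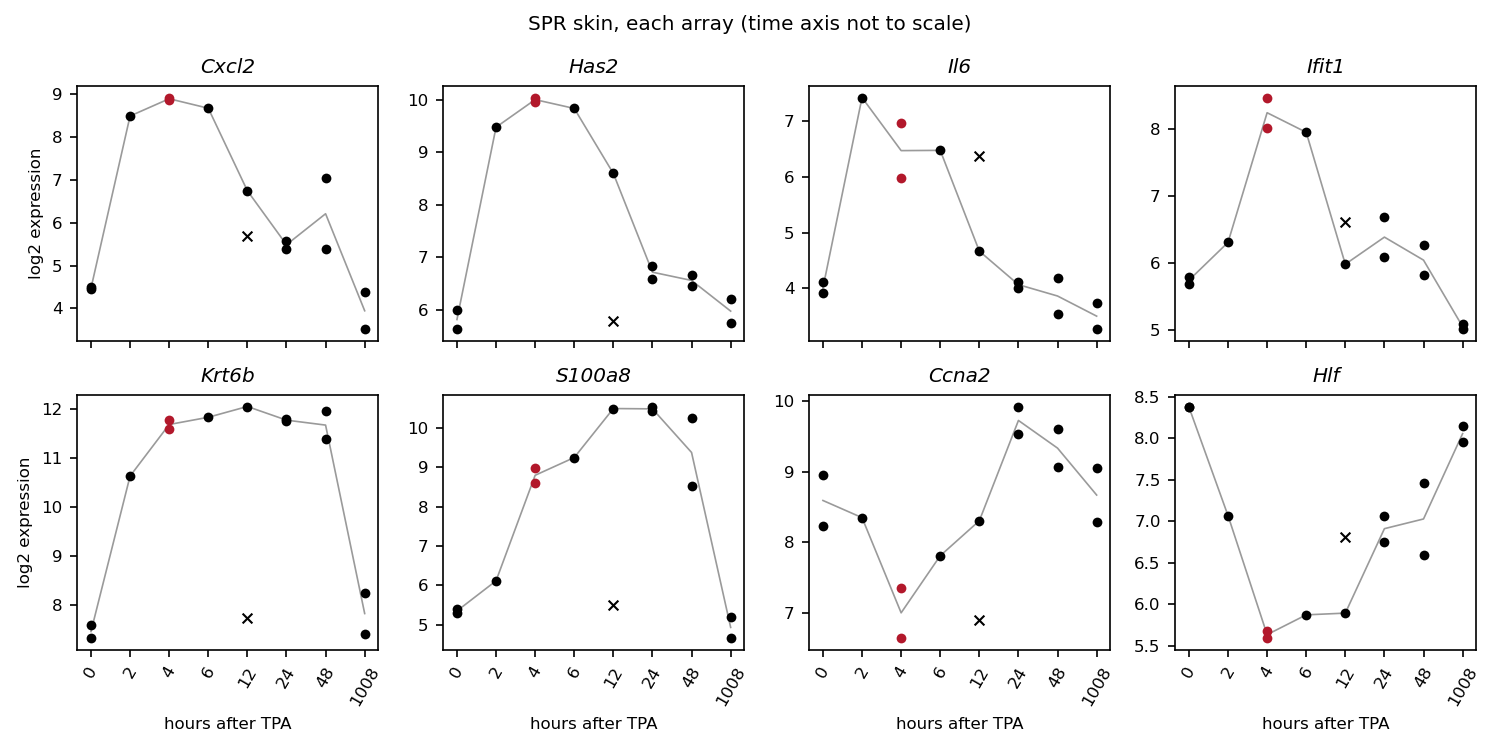
Log2 expression of 8 genes on all 14 SPR arrays at 0 to 1008 h after TPA, with 4 h in red and the time axis not to scale; the line joins group means without the array of narrow range, drawn as a cross. Cxcl2, Has2, Il6 and Ifit1 are lower at 24 h than at 4 h, and Krt6b and S100a8 were not called between these times. Ccna2 is lowest at 4 h and highest at 24 h. Values are not adjusted for batch.

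Between 4 h and 24 h, 674 genes (3.58%) were called, 452 higher (2.4%) and 222 lower (1.18%) at 24 h. One of the 2 arrays at 24 h is batch 3, and a batch term was in the fit. Adamts4 (11.2-fold lower), Cxcl10 (10.8-fold), Cxcl2 (10.3-fold), Cxcl1 (9.42-fold) and Cyp27b1 (9.22-fold), which makes active vitamin D, fell most. Adamts4 was at 5.51 and 5.95 at 24 h, against 5.27 and 5.44 untreated. Car6 (11.2-fold), Mmp11 (9.85-fold), Slc16a14 (8.73-fold), Ccna2 (6.09-fold) and Fads2b (5.81-fold) rose most. Car6 rested on 1 array: its change of 3.48 became 1.61 without 24 h replicate 1 (adjusted p = 0.55), and its call was also lost without 4 h replicate 1 (0.0802). Cxcl2 lost its call without 24 h replicate 1 (adjusted p = 0.055), and Cxcl2, Mmp11, Slc16a14 and Ccna2 lost theirs with batch 2 arrays alone. Ccna2 reached 9.53 and 9.92 at 24 h. Of the 21 mitosis genes 19 were higher at 24 h than at 4 h, with a median of 1.86, and of the 17 replication genes 11. With median centring these counts were 17 and 7. Of the 15 NF-kappaB genes 8 were lower at 24 h, of the 25 cytokines 9, of the 19 interferon genes 8 and of the 16 CC chemokines 6. None of the 18 stress keratins and small proline-rich proteins and none of the 15 antimicrobial proteins was called between these times. Krt6b was at 11.76 and 11.81 at 24 h and S100a8 at 10.43 and 10.55.

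Median centring moved the median of all genes between 4 h and 24 h to -0.26 and the share of calls that were higher from 67.1% to 29.5%. With batch 2 arrays alone 60 genes were called. Leaving out each of the 4 arrays in turn gave 440 calls without 4 h replicate 1, 263 without 4 h replicate 2, 348 without 24 h replicate 1 and 357 without 24 h replicate 2.

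F1 skin is the other tissue with arrays at 4 h, and it has untreated arrays of its own. The F1 comparison, with 4 untreated arrays, called 1973 genes (10.5%): 1027 rose (5.46%) and 946 fell (5.03%). Why this count was larger than in SPR was not tested. Untreated F1 replicates 2 and 4 and F1 4 h replicate 2 are batch 3. The other F1 arrays compared here are batch 2, as are the SPR arrays at 0 h and 4 h. The fit held a batch term, but F1 array levels given below come from both batches. Of the 484 genes called higher in SPR, 434 (89.7%) were called higher in F1, which is 42.3% of the F1 list. Of the 508 called lower, 399 (78.5%) were called lower in F1, or 42.2% of the F1 list. No gene was called in opposite directions. The difference between the changes was tested for every gene, and 1 of 18820 (0.00531%) was called, with 461 at an unadjusted p under 0.05.

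That gene was Nppb, which encodes the natriuretic peptide BNP. It went from 5.40 and 5.46 to 6.79 and 7.32 in SPR, and from 3.71 to 4.93 on the 4 untreated F1 arrays to 8.92 and 9.09. The rise was 1.62 ± 0.42 in SPR and 4.80 ± 0.36 in F1, a difference of -3.18 ± 0.55 (adjusted p = 0.0131). The untreated SPR arrays lay above all untreated F1 arrays and the treated ones below both treated F1 arrays. Bases of Spret/Ei may also differ under the probes, for this gene and those below. Any effect of that on levels or changes in SPR and F1 was not tested. The call was lost without untreated SPR replicate 1 or 2, without SPR 4 h replicate 1, without F1 4 h replicate 2, and with batch 2 arrays alone. In FVB/N, at times that differ, the change was 3.46 at 2 h and 3.98 at 6 h.

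Several antiviral interferon genes had larger changes in SPR than in F1 but no called difference. Ifit1 was at 5.04 to 5.41 on the untreated F1 arrays and at 5.86 and 5.88 at 4 h, a change of 0.65 ± 0.44 against 2.51 ± 0.51 in SPR. Rsad2 had a change of -0.13 ± 0.43 in F1 and 1.79 ± 0.50 in SPR. Usp18 had the smallest adjusted p of the list for the difference, 0.569, with 2.30 ± 0.62. Over the 19 genes the median change was 1.27 in SPR and 0.45 in F1. Cxcl10 changed by 2.72 in SPR and 2.46 in F1, and Irf1 by 2.29 and 2.50. Mc5r fell by 2.44 in SPR and had a change of -0.70 ± 0.38 in F1, and this difference was not called either (-1.73 ± 0.58, adjusted p = 1.0).

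**Figure D5:**
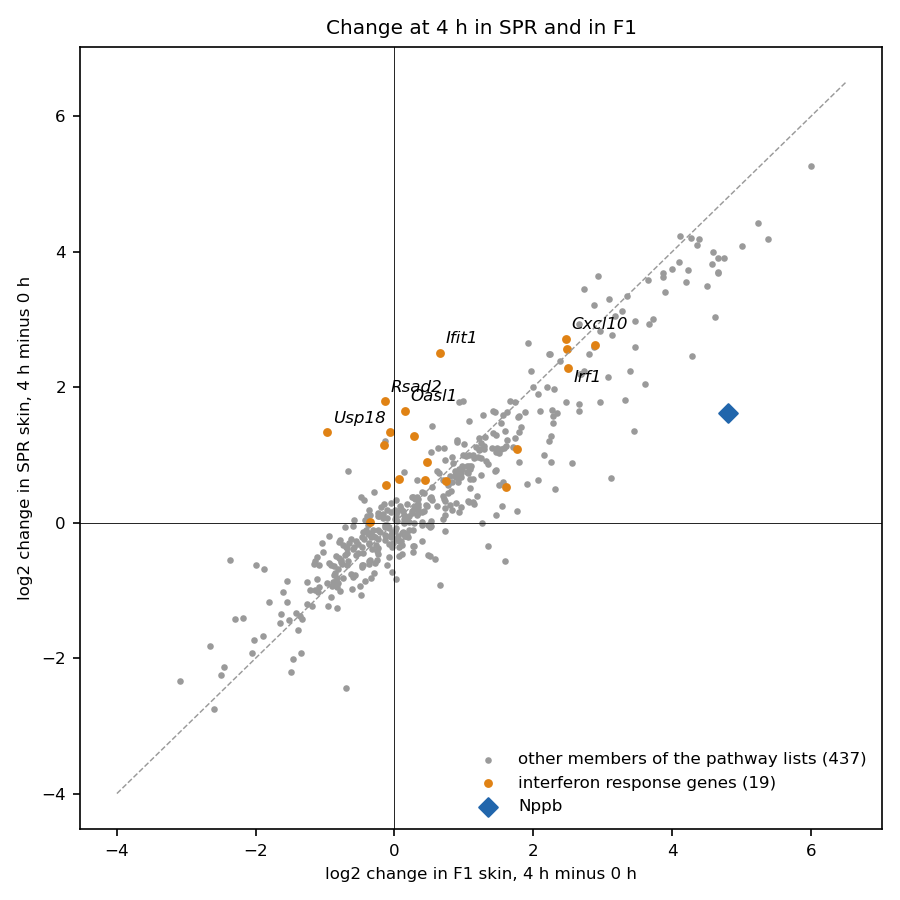
Log2 change at 4 h in F1 skin (across) and SPR skin (upward) for members of the pathway lists (grey), with interferon response genes in orange and Nppb as a diamond; the dashed line marks equal change. Nppb lies below the line, and Ifit1, Rsad2, Oasl1 and Usp18 lie above it, though of these only the difference of Nppb was called.

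The largest changes can be set beside those of the other strains. Lcn2 changed by 5.26 in SPR and 6.01 in F1 at 4 h, and in FVB/N by 2.65 at 2 h and 4.95 at 6 h. Adamts4 changed by 4.00 in SPR, 4.59 in F1, and 4.66 and 4.87 in FVB/N. Saa2 changed by 0.07 in FVB/N at 2 h and 4.33 at 6 h. Fads2b changed by -3.04 in SPR, -2.71 in F1, and -1.44 and -2.95 in FVB/N. The FVB/N times differ from 4 h and all FVB/N arrays are batch 1, so no test was made against them.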

How the data were processed

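The deposited values are log2 expression values that the authors made from Affymetrix arrays of biotin-labelled total RNA, and RMA is named without a version, per the submitters' processing notes. They cover 35556 probe sets on 69 arrays, from 0.206 to 14.839. The sources used here do not say how batches were handled. Through the platform annotation, 21218 probe sets had 1 symbol, 1881 had several and 12457 were not in that table. Where a gene had more than 1 probe set (1386 of 18820 genes), the brightest on average was used.

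Two-sided tests used lmFit and eBayes from limma 3.58.1, under R 4.3.3, in 1 model of 27 group means over the 66 arrays with a strain and a time, with a term for batch 3 against batch 2 (38 residual degrees of freedom). Values after ± are standard errors from that model. The steps were tested on simulated data with independent noise and known changes at SPR 4 h. The simulated data held no batch effect and no array of narrow range, so that test cannot speak to either. Array data give no read depth, so the number of arrays limits the precision.

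Named genes are the 15 largest rises and 15 largest falls among called genes with an ordinary symbol and arrays that did not overlap, called members of the gene lists with up to 4 others of the largest change in each, the called difference from F1, and the 5 largest changes each way at 24 h. The comparison and the lists were chosen with earlier results of these data known, and no list was tested as a set. Replicate numbers were not shown to pair the arrays. The correlation of same-numbered deviations was -0.151 between 0 h and 4 h, 0.18 between 4 h and 24 h and 0.0217 between F1 at 0 h and 4 h. Promoter sequences are from RefSeq (GRCm38.p6), matched by symbol.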

Additional observations from a re-analysis of the deposited data

Results flagged for a closer look

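The change of Nppb, the gene of natriuretic peptide BNP, differed between strains by a test of the difference itself. The SPR change minus the F1 change at 4 h was -3.18 on the log2 scale (adjusted p = 0.0131 in limma over 18820 genes). Nppb was higher at 4 h on 2 of 2 arrays in both strains. The call was lost with some single arrays left out, as described with its values, while the difference then ranged from -3.22 to -2.92. What accounts for the difference was not tested.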

How the results depend on the processing

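Calls at 4 h against 0 h (992, 484 higher, 508 lower) moved by over 1.5 times in these settings. Batch 2 arrays alone gave 467 (225 higher, 242 lower), SPR arrays alone 10 (8 and 2), median centring 298 lower, and no fold threshold 786 lower. Without the narrow SPR array at 12 h, a setting chosen after seeing the data, SPR arrays alone gave 1251. Leaving out each array gave 537 to 655 calls, 243 to 329 higher and 221 to 379 lower. At 24 h against 4 h (674, 452 higher, 222 lower) median centring gave 194 higher and 463 lower, cyclic loess 400 lower, batch 2 arrays alone 60 (21 and 39) and SPR arrays alone 0 by limma (1007 genes at an unadjusted p under 0.05), or 921 without the narrow array. Leaving out each array gave 263 to 440 calls, 162 to 320 higher and 78 to 123 lower. For the difference from F1 (1 called, lower) cyclic loess gave 3, all lower, leaving out the 2 narrow arrays 7 (1 higher, 6 lower) and batch 2 arrays alone 0 by limma (132 genes at an unadjusted p under 0.05). Leaving out each array gave 0 to 3 calls, 0 to 1 higher and 0 to 3 lower, with 275 to 400 genes at an unadjusted p under 0.05 where none was called. Settings with fewer arrays have fewer residual degrees of freedom, and the 4 arrays alone gave 1267 calls at 4 h. What moved the counts was not tested in any setting.

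Since the replicate numbers were not shown to pair arrays, the replicate block is an alternative only: it gave 974 calls at 4 h, 1 for the difference from F1 and 668 at 24 h. With crossed numbers, a setting also added after seeing the data, 981 genes were called at 4 h. Of the genes named by the rule, none changed direction in its comparison under the settings run.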
